A study of Solanum tuberosum with 8 samples.

Results

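The genes described here are 145 potato genes of glutathione metabolism and redox control, of the 32768 genes in the count table. They were chosen by the product names of the annotation: superoxide dismutase, catalase, ascorbate peroxidase, dehydroascorbate, peroxiredoxin, thioredoxin, glutaredoxin or glutathione, plus the gene *APX*. These words matched 188 genes, and 43 of them with fewer than 80 counts over the 8 libraries were left out. Just inside this minimum lay LOC102606278 with 85 counts and LOC107060503 with 92 counts, and just outside it LOC102583719 with 76 counts and LOC102593665 with 69 counts. By their product names, the 145 genes comprised 35 glutathione S-transferases (GSTs), 36 thioredoxins and thioredoxin-like proteins, 21 glutaredoxins, 9 superoxide dismutases (SODs, including a copper chaperone) and 7 enzymes of glutathione synthesis, reduction and breakdown. The others were 6 ascorbate peroxidases, 6 glyoxalases and S-glutathione hydrolases, 6 peroxiredoxins, 6 thioredoxin reductases, 5 glutathione peroxidases, 5 mono- and dehydroascorbate reductases and 3 catalases.

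Bulk RNA-seq was done on fully developed, untreated tubers of the diploid hybrid potato population 12-3, taken after harvest, with each bulk pooling RNA of 6 plants. Bulk L1 held plants of low tuber starch content (TSC) and high *AGPaseS-a* expression, and H1 plants of high TSC and high *AGPaseS-a* expression. Bulk L2 held plants of low TSC and low *AGPaseS-a* expression, and H2 plants of high TSC and low *AGPaseS-a* expression. Each bulk had 2 replicate libraries, A and B. *AGPaseS-a* belongs to ADP-glucose pyrophosphorylase, the enzyme that supplies ADP-glucose to starch synthases. The bulks pool segregating genotypes, so a value is an average over 6 genotypes, and in pooled tissue fewer cells of a type and less RNA per cell cannot be told apart.

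Plant cells form superoxide and hydrogen peroxide in respiration and under stress. SODs turn superoxide into hydrogen peroxide, which catalases remove in peroxisomes and ascorbate peroxidases and peroxiredoxins remove elsewhere. In the ascorbate-glutathione cycle, monodehydroascorbate reductases, dehydroascorbate reductases and glutathione reductases return the oxidized ascorbate and glutathione to their reduced forms. GSTs join glutathione to reactive or foreign compounds, and thioredoxins and glutaredoxins reduce disulfide bonds of target proteins, in plastids including enzymes of starch metabolism.

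The counts summed to 15293539 to 31943185 per library, with the lowest total in H1 replicate A, and 1.13 to 1.25% of them fell on the 145 genes. H1 replicate A and H2 replicate B stood apart: the correlation of the log2 levels of H1 replicate A with the other libraries was 0.893 to 0.913, and that of H2 replicate B 0.913 to 0.926, while the other 6 libraries correlated at 0.946 to 0.964 with each other. Results that rest on them are therefore also given without both. Tuber storage tissue was present in all libraries: the 24 annotated patatin genes, none of them at 0 throughout, summed to 13474 to 18821 CPM (counts scaled by TMM to a common library total) in L1 and L2, against 19014 to 25497 CPM in H1 and H2. The 19 periderm markers, none at 0 throughout, summed to 31.0 to 67.2 CPM in L1 and L2, against 45.8 to 68.7 CPM in H1 and H2. The 32 markers of green tissue, none at 0 throughout, summed to 73.8 to 273 CPM in L1 and L2, against 65.1 to 283 CPM in H1 and H2. The 2 wound-induced genes, neither at 0 throughout, summed to 41.8 to 78.3 CPM in L1 and L2, against 172 and 64.6 CPM in H1 replicates A and B and 77.9 and 138 CPM in H2 replicates A and B.

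In low-TSC tubers, several GSTs, a Cu/Zn-SOD and *APX* lay below their level in high-TSC tubers in every library, and the peroxisomal catalase *CAT1* showed no such order, but no redox gene passed the FDR threshold in edgeR. The question the bulks address is which transcripts differ between tubers of low and high TSC, within plants of high *AGPaseS-a* expression (H1/L1), within plants of low expression (H2/L2) and over both (H/L, both low-TSC bulks averaged and set against both high-TSC bulks). A log2FC above 0 marks a higher level at low TSC. The p-values come from edgeR's quasi-likelihood test across all genes, and each FDR printed is its Benjamini-Hochberg adjusted p. To be called, a gene needed an FDR below 0.05 together with a log2FC of 1.5 or more in either direction. None of the 145 genes was called by edgeR in these 3 comparisons, where 0% of the 20389 tested genes were called in each. The lowest FDR of a redox gene was 0.789 in H1/L1, 1.00 in H2/L2 and 0.623 in H/L. The 3 redox genes with the lowest p-values in H/L were the GSTs *LOC102592934*, *LOC102583107* and *LOC107057662*, each lower at low TSC. DESeq2 called 0 redox genes in H1/L1 and in H2/L2, where it called 31 and 27 of all 25652 genes it tested. In H/L it called 68 of the 25652, and 2 of them were redox genes, the GSTs *LOC102579204* and *LOC102597414*.

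At an unadjusted p under 0.05, L1 lay below H1 for 13 of the 145 genes (8.97%; background 3.34% of all tested genes) and above it for 1 (0.690%; background 2.39%). L2 lay below H2 for 4 genes (2.76%; background 1.32%) and above it for 0 (background 1.04%). In H/L, which shares its libraries with both, the low-TSC mean was lower for 13 genes (8.97%; background 4.75%) and higher for 0 (background 3.09%). DESeq2 gave 18 redox genes at this p in H1/L1, 6 in H2/L2 and 17 in H/L, and 6.64%, 2.72% and 8.35% of all genes it tested. In H/L, all 4 low-TSC libraries lay below all 4 high-TSC libraries for 9 redox genes (6.21%; background 2.82%) and above them for 2 (1.38%; background 3.42%). The 14 genes of H1/L1 depended on single libraries: there were 3 without L1 replicate A (2.14% of all tested genes), 9 without L2 replicate A (3.604%) or L2 replicate B (3.64%), 4 without H1 replicate A (3.71%) and 41 without H1 replicate B. The last fit also placed 24.1% of all tested genes under this p. The 4 genes of H2/L2 became 8 without H1 replicate A (4.23% of all tested genes), 7 without H1 replicate B (4.26%) and 8 without H2 replicate A (8.78%). The 13 of H/L became 38 without H1 replicate B (24.2% of all tested genes) and 21 without H2 replicate A (15.5%). Without both H1 replicate A and H2 replicate B, the counts were 7 lower and 5 higher in H1/L1, 12 lower and 2 higher in H2/L2, and 14 lower and 4 higher in H/L, while 7.51%, 5.53% and 8.98% of all tested genes had this p in either direction.

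The classes differed in how far this rested on the libraries that stood apart. The median log2FC of the 35 GSTs was -0.45 in H1/L1 and -0.32 in H2/L2, with 26 and 23 genes below 0. All 145 genes had a median of -0.19 in both comparisons, and all tested genes 0.02 and 0.01. In H1/L1, 74.3% of the GSTs were below 0, against 65.5% of the 145 genes and 48.7% of all tested genes. In H2/L2 the shares were 65.7%, 69.7% and 48.7%, so the GSTs did not exceed the redox genes as a whole there. Without H1 replicate A and H2 replicate B, the GST medians were -0.29 and -0.35, with 26 and 24 genes below 0. The medians of all 145 genes were then -0.01 and -0.08. The 36 thioredoxins had medians of -0.19 in H1/L1 and -0.16 in H2/L2, and of 0.03 and 0.05 without the pair. The 21 glutaredoxins had medians of -0.48 and -0.19, and of -0.25 and 0.16 without the pair. With library totals in place of TMM, the median of all tested genes was 0.14 in H1/L1 and 0.12 in H2/L2, and that of the GSTs -0.28 and -0.23. Under that scaling, 8 redox genes were lower and 2 higher at an unadjusted p under 0.05 in H1/L1, and the thioredoxin median of H1/L1 was 0.00.

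**Figure D1:**
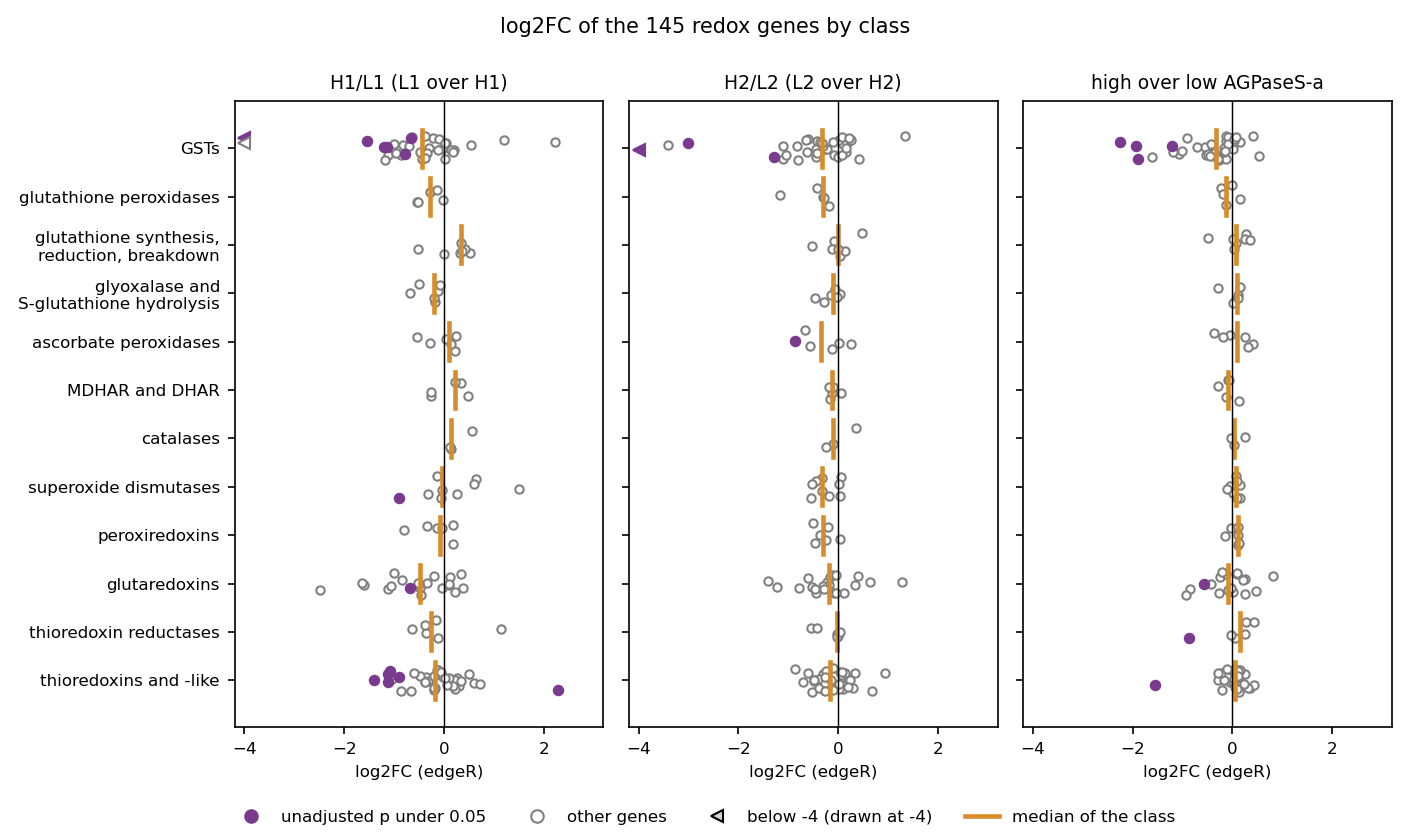
The log2FC from edgeR (horizontal axis) of the 145 redox genes, by class (rows), in H1/L1, H2/L2 and high over low *AGPaseS-a*. Filled points have an unadjusted p under 0.05, open points do not, bars are class medians, and arrowheads mark LOC102604161 and LOC102597414, fitted below -4 on few counts. The GST medians lie at -0.45, -0.32 and -0.33, and no gene passed the FDR threshold.

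The GST with the lowest p in H1/L1 was *LOC102583107* (SolTub_3.0, scaffold NW_006239132.1, 584447 to 586630, plus strand), annotated simply as glutathione S-transferase. It had 205 and 159.7 CPM in L1, against 503 and 333 CPM in H1, and 258 and 277 CPM in L2, against 329 and 399 CPM in H2. All 4 low-TSC libraries were below all 4 high-TSC libraries, and the 2 libraries of L1 were the lowest of all. Its log2FC was -1.20 (SE 0.296, FDR 0.789) in H1/L1 and -0.44 (SE 0.292, FDR 1.00) in H2/L2. In H/L it was -0.82 (SE 0.207, FDR 0.623), and -0.58 without H1 replicate A and H2 replicate B. The difference between H1/L1 and H2/L2 was -0.75 (SE 0.413, FDR 1.00) and was not called.

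*LOC102593841*, the GST with the highest mean CPM, is annotated as zeta class, a group that acts as maleylacetoacetate isomerase in the breakdown of tyrosine. It had 331 and 231 CPM in L1, against 422 and 343 CPM in H1, and 445 and 429 CPM in L2, against 423 and 410.1 CPM in H2. L1 lay below H1 by a log2FC of -0.45 (SE 0.273), while the log2FC of H2/L2 was 0.07 (SE 0.272). Neither difference had an unadjusted p under 0.05.

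Of the GST 23-like genes, 4 lie side by side on the minus strand of scaffold NW_006239104.1, between 98299 and 131359. Their summed level was 19.9 and 29.7 CPM in L1, against 55.2 and 40.1 CPM in H1, and 28.8 and 30.0 CPM in L2, against 54.4 and 48.6 CPM in H2, so every low-TSC library was below every high-TSC library. Within them, *LOC102592934* (122376 to 123608) had 9.59 and 10.6 CPM in L1, against 18.5 and 16.0 CPM in H1, and 8.54 and 9.88 CPM in L2, against 23.8 and 21.1 CPM in H2. Its groups did not overlap. Its log2FC was -0.77 (SE 0.266, FDR 0.789) in H1/L1, -1.28 (SE 0.267, FDR 1.00) in H2/L2 and -1.03 (SE 0.188, FDR 0.623) in H/L, the lowest p of a redox gene in H2/L2 and in H/L. Leaving out single libraries gave -1.08 to -0.97 in H/L, and leaving out H1 replicate A and H2 replicate B together gave -1.02.

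Its neighbour *LOC107057662* (124391 to 125586) had 4.48 and 5.27 CPM in L1, against 18.3 and 9.99 CPM in H1, and 11.3 and 4.58 CPM in L2, against 16.3 and 16.3 CPM in H2. L2 replicate A overlapped the high-TSC libraries, and the log2FC was -1.53 (SE 0.481, FDR 0.789) in H1/L1 and -1.04 (SE 0.471, FDR 1.00) in H2/L2. The outer genes of the row did not follow this pattern: *LOC102591927* had 5.74 and 11.02 CPM in L1, against 18.0 and 9.38 CPM in H1, and 8.33 and 12.9 CPM in L2, against 11.1 and 9.84 CPM in H2, and its log2FC of 0.02 in H2/L2 was close to 0. *LOC102589684* ranged from 0.0627 to 4.76 CPM and was lower in replicate A than in replicate B in L1, L2 and H1, with no separation of low and high TSC. A further gene of this name on another scaffold, *LOC102602918*, named after its values were seen, had 2.45 and 3.25 CPM in L1, against 6.43 and 3.92 CPM in H1, and 5.24 and 3.21 CPM in L2, against 4.11 and 6.27 CPM in H2. Because these genes have similar names and no source used here states how reads shared by near-identical genes were counted, the split of reads between them is uncertain.

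The study listed 1 GST, *LOC102579204*, among its selected genes, on these same libraries, so its direction in H2/L2 is not independent evidence. The paper called it lower in L2 than in H2 under the same thresholds but with its own test, from the DESeq package. Its log2FC was smaller in size than the edgeR value given below. Neither edgeR nor DESeq2 called it in H2/L2 here. The paper kept it after semi-quantitative RT-PCR showed a difference between bulks, and lists no mapped marker or eQTL for it. The gene lies on the plus strand of scaffold NW_006239594.1 from 181196 to 182771. The primers used for its semi-quantitative RT-PCR are shown because they name the transcript stretch that was assayed, in lower case and 5′ to 3′.
forward primer: cctatccacaagaaaatccctgt
reverse primer: gtcaccccagaacctagctt

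*LOC102579204* had 1.32 and 6.67 CPM in L1, against 11.2 and 6.16 CPM in H1, and 3.31 and 4.49 CPM in L2, against 51.3 and 11.8 CPM in H2. The 4 libraries of L1 and L2 and both of H1 lay below H2 replicate B, and H2 replicate A stood far above all. Its log2FC was -3.02 (SE 0.872, FDR 1.00) in H2/L2 and -1.11 (SE 0.834, FDR 0.805) in H1/L1. Without H2 replicate A the value in H2/L2 was -1.59, and without H2 replicate B it was -3.72. DESeq2 gave it a log2FC of -2.08 in H/L with an FDR of 0.0357, against -2.07 and an FDR of 0.623 in edgeR. The other members on this stretch are *LOC102579851*, at 0 to 1.84 CPM, and the parC-type GST *LOC102580173*, named after an auxin-induced gene of tobacco. *LOC102580173* had 22.4 and 29.0 CPM in L1, against 42.5 and 39.1 CPM in H1, and 36.7 and 33.6 CPM in L2, against 52.1 and 41.7 CPM in H2, again with every low-TSC library below every high-TSC library, and a log2FC of -0.54 (SE 0.178, FDR 0.623) in H/L. This order depends on the TMM scaling. Relative to library totals, H1 replicate A (535 of 15293539 counts) lay below L2 replicates A (1197 of 31554975) and B (1109 of 30395042).

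A tail-to-tail GST pair on scaffold NW_006239411.1 (391019 to 393657) differed within itself. *LOC102602353*, on the minus strand, had 18.0 and 32.2 CPM in L1, against 69.2 and 41.1 CPM in H1, and 29.9 and 27.6 CPM in L2, against 51.8 and 36.6 CPM in H2, and its low-TSC and high-TSC libraries did not overlap. Its log2FC was -1.13 (SE 0.376, FDR 0.789) in H1/L1 and -0.62 (SE 0.373, FDR 1.00) in H2/L2. *LOC102602024*, on the plus strand next to it, had 91.6 and 68.4 CPM in L1, against 122 and 85.3 CPM in H1, and 76.0 and 103 CPM in L2, against 65.6 and 113 CPM in H2, with overlapping groups in both comparisons and log2FCs of -0.37 and 0.00.

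**Figure D2:**
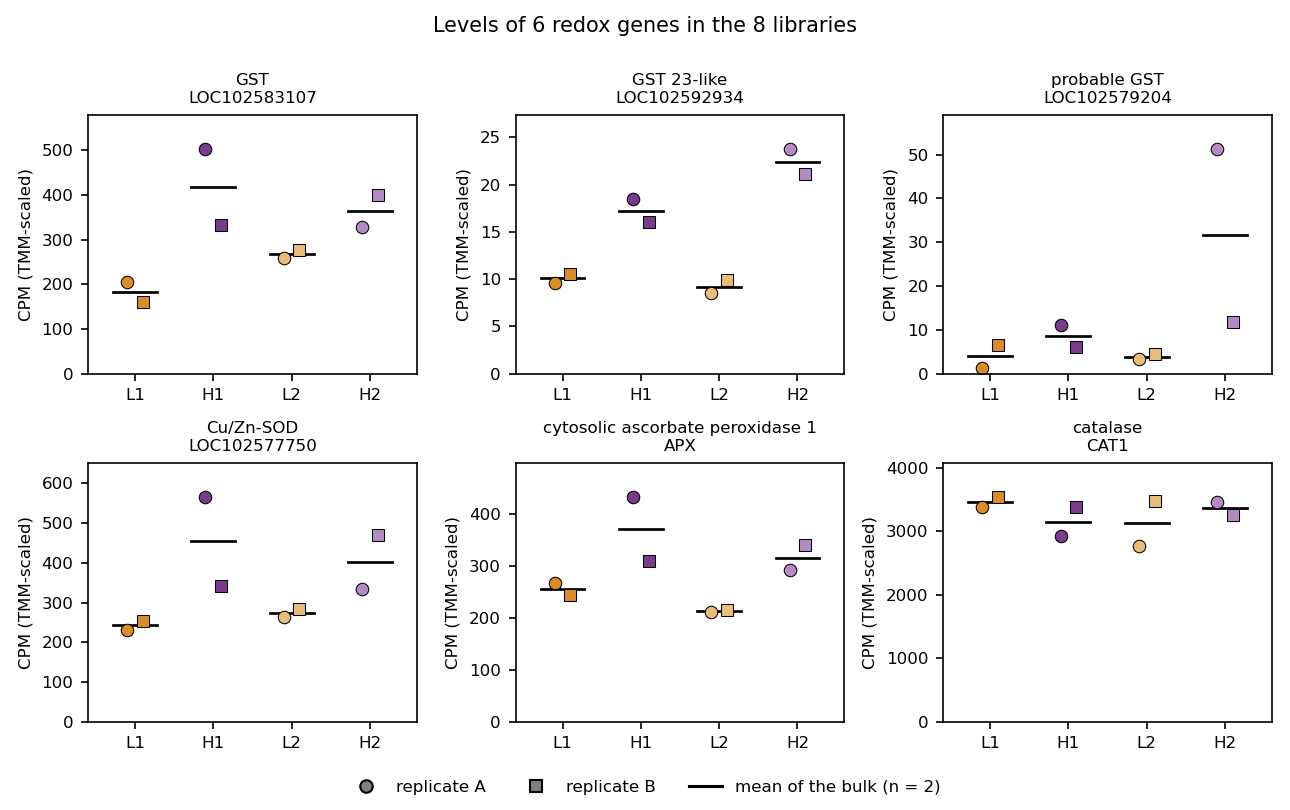
Levels in CPM (vertical axis, from 0) of 3 GSTs, the Cu/Zn-SOD *LOC102577750*, *APX* and *CAT1* in replicates A (circles) and B (squares) of L1, H1, L2 and H2, with the mean of each bulk as a bar. All low-TSC libraries of *LOC102583107*, *LOC102592934*, *LOC102577750* and *APX* are below all high-TSC libraries, *LOC102579204* is far highest in H2 replicate A, and *CAT1* shows no such order.

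For 2 GSTs the fitted log2FC rests on a few counts and is no measure of size. *LOC102604161*, a lambda-class gene named after its values were seen, had 0 and 0 counts in L1, against 0 and 156 counts in H1, and 4 and 0 counts in L2, against 22 and 14 counts in H2. *LOC102597414* had 0 and 1 counts in L1, against 11 and 5 counts in H1, and 3 and 0 counts in L2, against 120 and 2 counts in H2. A single library, H1 replicate B for one and H2 replicate A for the other, holds most of the counts of each. *LOC102597414* is the other gene called by DESeq2 in H/L, with an FDR of 0.0445, and *LOC102585121*, annotated as GST-like, is a GST that lay higher in L1, at 2.92 and 2.84 CPM in L1, against 0.635 and 1.82 CPM in H1, with a log2FC of 1.200 (SE 0.616, FDR 0.789), which was 0.66 without H1 replicate A and 2.18 without H1 replicate B.

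Between the classes of *AGPaseS-a* expression (H1 and L1 averaged, set against H2 and L2 averaged), 0 redox genes were called by edgeR and 0 by DESeq2. Of all tested genes, edgeR called 0.0049%, and DESeq2 called 42 of 25652. At an unadjusted p under 0.05, 7 redox genes were lower with high *AGPaseS-a* expression (4.83%; background 1.68%) and 0 were higher (background 1.46%), and DESeq2 gave 8 at this p (3.49% of all genes it tested). All 4 libraries of H1 and L1 lay below all 4 of H2 and L2 for 3 redox genes (2.07%; background 1.3%) and above them for 2 (1.38%; background 0.961%). The median log2FC was -0.33 for the GSTs, with 28 of 35 below 0, -0.02 for all 145 genes and 0.00 for all tested genes. The shares below 0 were 80% of the GSTs, 51.0% of the 145 genes and 49.9% of all tested genes. Without H1 replicate A and H2 replicate B, the GST median was -0.33, with 29 of 35 below 0. The count of 7 ranged from 3 without L2 replicate B (1.91% of all tested genes) to 13 without H1 replicate B (11.8%) when single libraries were left out, and was 14 without both libraries that stood apart (6.35%).

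Of these 7 genes, 4 are probable GSTs in a single row on the plus strand of scaffold NW_006239771.1. This scaffold carries 16 genes annotated as probable GST between 17579 and 74978, and 6 of them reached the minimum of counts. *LOC102600687* (71575 to 72864) had 8.50 and 10.97 CPM in H1 and 7.15 and 12.7 CPM in L1, against 27.4 and 14.7 CPM in H2 and 27.4 and 21.4 CPM in L2, with no overlap. Its log2FC was -1.21 (SE 0.289, FDR 1.00), the lowest p of a redox gene in this comparison, and ranged over -1.44 to -0.95 when single libraries were left out. *LOC102599376* (63422 to 64927), at low levels, had 0.318 and 0.233 CPM in H1 and 0.188 and 0.376 CPM in L1, against 1.67 and 1.504 CPM in H2 and 0.582 and 0.879 CPM in L2, again with no overlap and a log2FC of -1.94 (SE 0.676, FDR 1.00).

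*LOC102599054* (66656 to 67935) had 3.02 and 1.31 CPM in H1 and 1.60 and 1.47 CPM in L1, against 18.0 and 3.65 CPM in H2 and 2.69 and 11.2 CPM in L2. *LOC102602051* (73902 to 74978) had 0.556 and 0.327 CPM in H1 and 0.314 and 0.650 CPM in L1, against 3.26 and 0.602 CPM in H2 and 1.26 and 1.76 CPM in L2. Both were highest in H2 replicate A and overlapped between the classes, with log2FCs of -2.26 (SE 0.638) and -1.89 (SE 0.714), which moved to -1.47 and -1.05 without that library. Between them lies *LOC102600356* (68565 to 69863), which did not share this pattern. It had 25.2 and 5.51 CPM in H1 and 5.80 and 7.67 CPM in L1, against 6.24 and 12.4 CPM in H2 and 41.0 and 6.33 CPM in L2, with its highest level in L2 replicate A and a log2FC of -0.55 (SE 0.629), which turned to 0.40 without that library. Of the 10 genes of the scaffold below the minimum, none had more than 60 counts over the 8 libraries. The genes carry the same product name, so reads shared between copies may be split between them in a way the counts do not show.

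**Figure D3:**
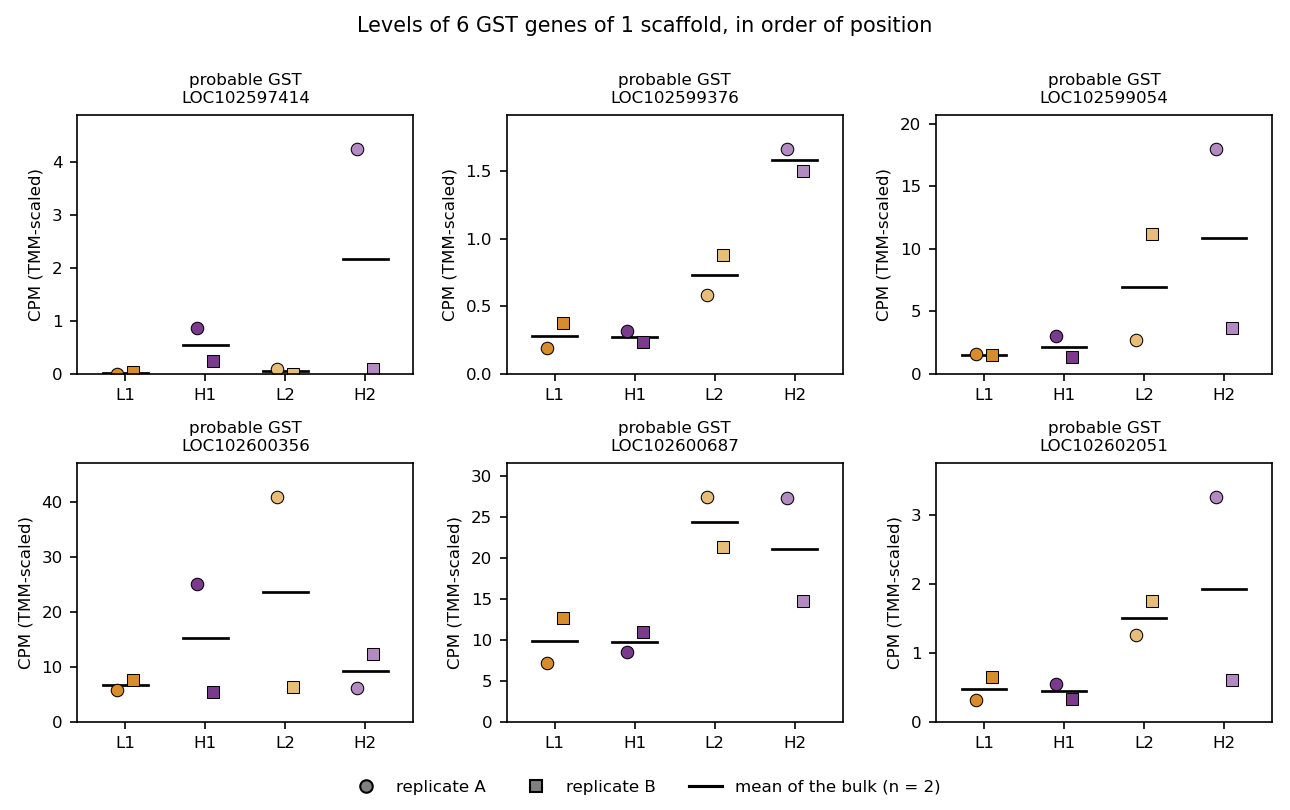
Levels in CPM (vertical axis, from 0, a separate scale per panel) of the 6 probable GSTs of scaffold NW_006239771.1 with at least 80 counts, in order of position, in replicates A (circles) and B (squares) of L1, H1, L2 and H2, with the mean of each bulk as a bar. *LOC102599376* and *LOC102600687* are lower in every library of L1 and H1 than in every library of L2 and H2, and *LOC102597414*, *LOC102599054* and *LOC102602051* are highest in H2 replicate A.

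The other genes at an unadjusted p under 0.05 between these classes were a glutaredoxin, a thioredoxin-like gene and a thioredoxin reductase. *LOC102586605*, of a family with an antioxidant domain in plastids, had 0.0794 and 0.327 CPM in H1 and 1.10 and 1.03 CPM in L1, against 1.42 and 1.33 CPM in H2 and 1.71 and 1.18 CPM in L2, with no overlap and a log2FC of -1.55 (SE 0.613, FDR 1.00). The 2 libraries of H1 were its lowest, and it was the only redox gene at an unadjusted p under 0.05 on the higher side in L1, with a log2FC of 2.28 (SE 0.913, FDR 0.789). This value rests on few counts, 35 and 30 in L1, against 1 and 7 in H1, and ranged over 1.69 to 3.67 when libraries were left out. *LOC102601160*, for NTRC, the plastid enzyme that combines thioredoxin reductase and thioredoxin, had 1.19 and 3.64 CPM in H1 and 5.86 and 4.997 CPM in L1, against 6.59 and 8.85 CPM in H2 and 5.73 and 5.76 CPM in L2, and a log2FC of -0.87 (SE 0.368, FDR 1.00). *LOC102605242*, a glutaredoxin-C6-like gene chosen for mention after its values were seen, had 74.2 and 60.04 CPM in H1 and 88.1 and 81.1 CPM in L1, against 110.2 and 137 CPM in H2 and 80.9 and 122 CPM in L2, and a log2FC of -0.57 (SE 0.200, FDR 1.00). The genes that were higher in all 4 libraries of H1 and L1 were *LOC102600824*, a phytochelatin synthase gene, with a log2FC of 0.35 (SE 0.192, FDR 1.00), and the glutaredoxin gene *LOC102598582*, with 0.81 (SE 0.469, FDR 1.00).

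Among the ascorbate peroxidases, which reduce hydrogen peroxide with ascorbate, 2 genes annotated as cytosolic lie 24 kb apart on scaffold NW_006239525.1. *APX* (55927 to 59354, minus strand) had 267 and 244 CPM in L1, against 433 and 309 CPM in H1, and 212 and 215 CPM in L2, against 292 and 341 CPM in H2. All low-TSC libraries were below all high-TSC libraries, and the log2FC was -0.55 (SE 0.186, FDR 0.623) in H/L. In the single comparisons it was -0.54 (SE 0.263, FDR 0.789) in H1/L1 and -0.57 (SE 0.263, FDR 1.00) in H2/L2. H1 replicate A and H2 replicate B were the highest libraries of *APX*. Leaving out libraries, alone or this pair together, gave -0.66 to -0.36 in H/L. The ranges were -0.76 to -0.27 in H1/L1 and -0.67 to -0.45 in H2/L2. *LOC102586473* (83079 to 86388, plus strand) had 47.5 and 50.8 CPM in L1, against 75.7 and 42.9 CPM in H1, and 34.4 and 25.5 CPM in L2, against 48.6 and 59.9 CPM in H2. L2 lay below H2 by a log2FC of -0.86 (SE 0.323, FDR 1.00), and the groups of H1/L1 overlapped, with H1 replicate B the lowest of the 4 libraries. The log2FC of H1/L1 was -0.27 and turned to 0.20 without H1 replicate A.

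The cytosolic gene with the highest mean CPM of the class, *LOC102578720*, lay higher in L1 than in H1. It had 279.8 and 271 CPM in L1, against 229.5 and 244 CPM in H1, and 379 and 341 CPM in L2, against 233 and 370.0 CPM in H2, and its highest levels were in both libraries of L2 and in H2 replicate B. Its log2FC was 0.22 (SE 0.282) in H1/L1 and 0.26 (SE 0.281) in H2/L2, and neither had an unadjusted p under 0.05. The other 3 genes of the class ranged from 9.92 to 32.4 CPM, and none had an unadjusted p under 0.05 in any comparison.

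No enzyme that regenerates ascorbate or glutathione had an unadjusted p under 0.05 in any comparison. *LOC102586212*, a monodehydroascorbate reductase, had 158 and 187 CPM in L1, against 209 and 205 CPM in H1, and 182 and 206 CPM in L2, against 224 and 196 CPM in H2, with a log2FC of -0.26 (SE 0.238) in H1/L1. The peroxisomal *LOC102595145* ranged from 32.1 to 44.7 CPM and the mitochondrial *LOC102583368* from 42.2 to 71.5 CPM. *LOC102583368* was highest in L1, at 71.5 and 59.3 CPM in L1, against 48.4 and 45.4 CPM in H1, and its log2FC of 0.48 (SE 0.249, FDR 0.789) in H1/L1 was the largest of the class. Of the dehydroascorbate reductases, *DHAR* had 52.5 and 64.6 CPM in L1, against 33.8 and 58.9 CPM in H1, and 77.8 and 42.7 CPM in L2, against 59.2 and 75.7 CPM in H2. *DHAR2* had 20.6 and 15.8 CPM in L1, against 11.7 and 19.6 CPM in H1, and 15.6 and 19.9 CPM in L2, against 19.6 and 19.2 CPM in H2. Both were lowest in H1 replicate A, and their groups overlapped in every comparison. The summed level of this class was 334 and 360.0 CPM in L1, against 347 and 362 CPM in H1, and 364 and 354 CPM in L2, against 395 and 377 CPM in H2, and low and high TSC overlapped.

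*LOC102588189*, annotated as a chloroplastic glutathione reductase although its closest Swiss-Prot entry is a cytosolic one, had 350.5 and 264 CPM in L1, against 229.7 and 259.6 CPM in H1, and 302 and 259 CPM in L2, against 288 and 224 CPM in H2, with log2FCs of 0.33 (SE 0.271) and 0.13 (SE 0.270). In the class of glutathione synthesis, reduction and breakdown, 5 of 7 genes had a log2FC above 0 in H1/L1 (median 0.35) and 3 of 7 in H2/L2 (median -0.01), and none had an unadjusted p under 0.05 in any comparison. Its summed level was 466 and 365 CPM in L1, against 315 and 348 CPM in H1, and 387 and 349 CPM in L2, against 382 and 297 CPM in H2, with the lowest values in the libraries that stood apart, H1 replicate A and H2 replicate B.

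Of the 3 catalases, 1 showed an order by TSC. *CAT1* (scaffold NW_006238962.1, 1215633 to 1219321, minus strand) collected the most counts of the 145 genes, 698959 over the 8 libraries. It had 3376 and 3537 CPM in L1, against 2922 and 3378 CPM in H1, and 2773 and 3473 CPM in L2, against 3466 and 3259 CPM in H2, which overlapped in both comparisons, and log2FCs of 0.13 (SE 0.280) and -0.11 (SE 0.280). *LOC102598238*, isozyme 3, had 15.1 and 46.4 CPM in L1, against 32.9 and 23.5 CPM in H1, and 27.0 and 18.2 CPM in L2, against 30.0 and 23.5 CPM in H2, with the lowest and the highest level in the 2 libraries of L1. *LOC102577720*, isozyme 2, had 6.58 and 7.53 CPM in L1, against 5.002 and 4.62 CPM in H1, and 6.55 and 7.0 CPM in L2, against 5.10 and 5.41 CPM in H2. It was 1 of the 2 redox genes for which all low-TSC libraries lay above all high-TSC libraries, with a log2FC of 0.46 (SE 0.238, FDR 0.641) in H/L.

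The SODs did not share a direction in H1/L1. *LOC102577750*, a Cu/Zn-SOD (scaffold NW_006238963.1, 40672 to 44466, minus strand), had 232 and 255 CPM in L1, against 566 and 342 CPM in H1, and 264 and 285 CPM in L2, against 334 and 469 CPM in H2. The low-TSC libraries did not overlap the high-TSC libraries, and H1 replicate A and H2 replicate B were the highest. The log2FC was -0.90 (SE 0.317, FDR 0.789) in H1/L1, -0.55 (SE 0.315, FDR 1.00) in H2/L2 and -0.72 (SE 0.224, FDR 0.623) in H/L. Without both high libraries, the value in H/L was -0.39 (FDR 0.502). A pair of plastid SODs lay higher in L1 than in H1, with no overlap: the iron SOD *LOC102577566*, at 101 and 103 CPM in L1, against 83.8 and 46.5 CPM in H1, and the Cu/Zn-SOD *LOC102605869*, at 19.8 and 16.7 CPM in L1, against 12.0 and 12.2 CPM in H1. Their log2FCs were 0.65 (SE 0.303, FDR 0.789) and 0.59 (SE 0.295, FDR 0.789), and in H2/L2 they were -0.18 (SE 0.302) and -0.32 (SE 0.292). The H1/L1 value of *LOC102577566* was 1.14 without H1 replicate A and 0.29 without H1 replicate B. The copper chaperone *LOC102598129*, which loads copper into the Cu/Zn type, had 32.1 and 26.4 CPM in L1, against 27.1 and 21.7 CPM in H1, and 27.5 and 19.8 CPM in L2, against 34.1 and 30.5 CPM in H2. A second iron SOD on the scaffold of the first, *LOC102588174*, ranged from 2.33 to 12.3 CPM, with the highest level in L1 replicate B alone.

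Glutathione peroxidases reduce lipid and other peroxides. *LOC102603592* had 133 and 147 CPM in L1, against 129 and 180.5 CPM in H1, and 147 and 146 CPM in L2, against 169.6 and 187 CPM in H2. *LOC102592114* had 103 and 85.8 CPM in L1, against 160.2 and 68.7 CPM in H1, and 106 and 99.5 CPM in L2, against 89.8 and 186 CPM in H2. The first was lowest in H1 replicate A, while the second was highest in H1 replicate A and H2 replicate B. *LOC102600306* ranged from 11.5 to 26.4 CPM, *LOC102591042* from 11.04 to 17.9 CPM and *LOC102599983* from 0.765 to 5.46 CPM. All 5 had a log2FC below 0 in H1/L1 and in H2/L2, with medians of -0.27 and -0.31, and none had an unadjusted p under 0.05. Without H1 replicate A and H2 replicate B, 3 and 3 of the 5 were below 0.

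In TMM-scaled CPM, several classes were highest in the 2 libraries that stood apart. The clearest gene was *LOC102606254*, a peroxiredoxin-2B-like gene of the cytosolic type that reduces peroxides through thioredoxin (scaffold NW_006238948.1, 2675537 to 2679682). It had 378 and 305 CPM in L1, against 821 and 366 CPM in H1, and 377 and 335 CPM in L2, against 337 and 645 CPM in H2. H1 replicate A and H2 replicate B were far above the other 6 libraries, which lay between 305 and 378 CPM. Its log2FC in H/L was -0.63 (SE 0.311), and -0.01 without the pair. *LOC102599485*, a putative lactoylglutathione lyase (glyoxalase) that handles the glutathione adduct of methylglyoxal, had 725 and 660.4 CPM in L1, against 1459 and 748 CPM in H1, and 985 and 657 CPM in L2, against 685 and 1142 CPM in H2. Its value in H/L was -0.41 (SE 0.289), and 0.08 without the pair. *LOC102579143*, the catalytic chain of ferredoxin-thioredoxin reductase in plastids, had 107 and 74.8 CPM in L1, against 196 and 88.6 CPM in H1, and 80.3 and 75.7 CPM in L2, against 79.8 and 147 CPM in H2, with the same libraries highest.

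The class sums, in which genes with high CPM weigh most, showed the same libraries. The peroxiredoxins summed to 497 and 402 CPM in L1, against 942 and 472 CPM in H1, and 474 and 438 CPM in L2, against 469 and 757 CPM in H2. *LOC102606254* alone made up 821 CPM of the sum in H1 replicate A and 645 CPM of that in H2 replicate B. Of the 6 peroxiredoxins, 2 had their highest levels in these 2 libraries. The SODs summed to 632 and 635 CPM in L1, against 996 and 607 CPM in H1, and 602 and 586 CPM in L2, against 698 and 892 CPM in H2. The glyoxalase class summed to 1362 and 1157 CPM in L1, against 2205 and 1284 CPM in H1, and 1594 and 1111 CPM in L2, against 1198 and 1837 CPM in H2. *LOC102599485* alone made up 1459 CPM of the sum in H1 replicate A and 1142 CPM of that in H2 replicate B. In all 3, H1 replicate A and H2 replicate B were the highest of the 8 libraries, and they were also the highest for the thioredoxins, the thioredoxin reductases, the glutathione peroxidases and the ascorbate peroxidases. This order holds for TMM-scaled CPM. The TMM factor was 0.824 in H1 replicate A and 0.944 in H2 replicate B, against 0.999 to 1.09 in the other 6. A lower factor raises the CPM, and the class sums were not recomputed with library totals. Of the raw counts, 1.13% in H1 replicate A and 1.25% in H2 replicate B fell on the redox genes, against 1.13 to 1.19% in the other 6. These 2 libraries also held the highest level of the wound-induced genes and the fewest detected genes, 19392 in H1 replicate A and 20213 in H2 replicate B, against 22193 to 23188 in the other 6, and H1 replicate A had the lowest total count. The part of these measures in these sums was not tested. The GSTs summed to 1039 and 1042 CPM in L1, against 1669 and 1344 CPM in H1, and 1375 and 1362 CPM in L2, against 1519.8 and 1528 CPM in H2, so L1 stood below the other bulks in both replicates. The means were 1040.3 ± 2.29 CPM in L1, against 1506 ± 229.8 CPM in H1, and 1369 ± 9.11 CPM in L2, against 1524 ± 5.42 CPM in H2 (SD, n = 2 each). The small SD of L1 does not hold for single genes: *LOC102593841* had 331 and 231 CPM and *LOC102604265* 106 and 151 CPM. Much of the gap of L1 lay in *LOC102593841* and *LOC102583107*. Their means were 281 and 182 CPM in L1, against 383 and 418 CPM in H1 and 437 and 267 CPM in L2.

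**Figure D4:**
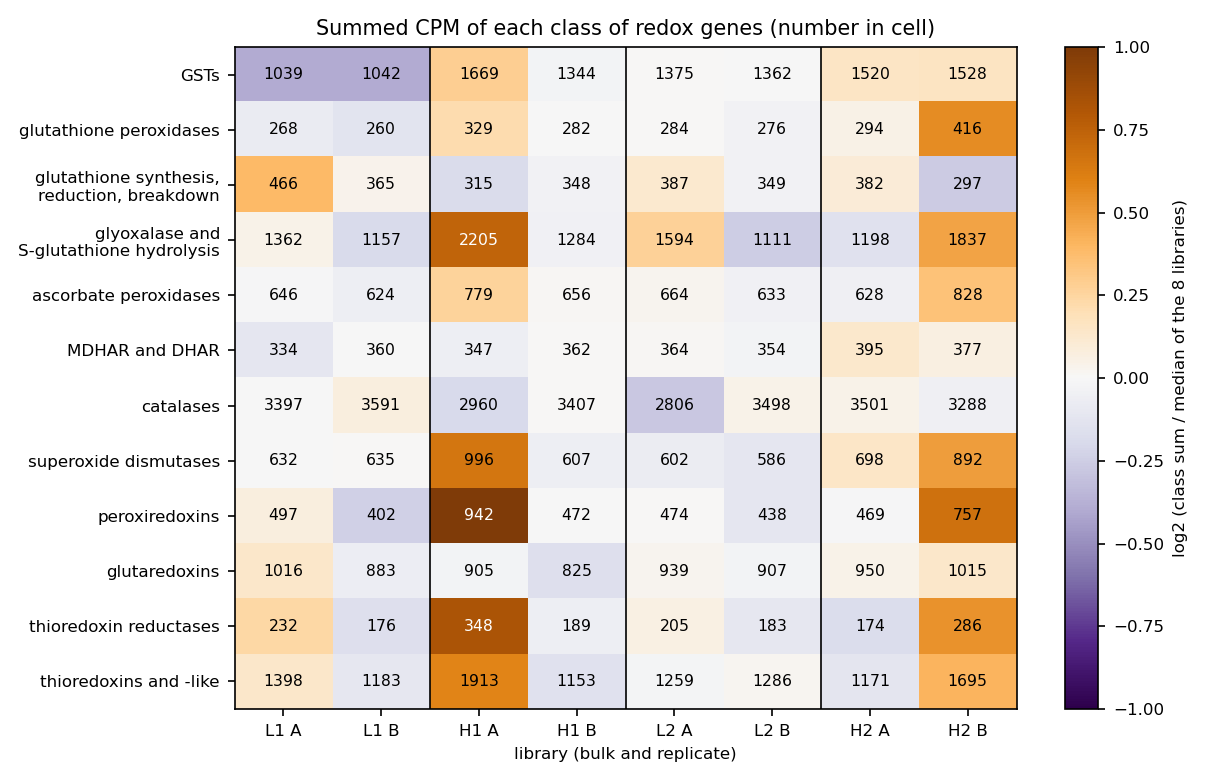
Summed CPM of each class of redox genes (number in each cell) in the 8 libraries (columns), coloured by the log2 ratio to the median of the 8 libraries for that class. H1 replicate A and H2 replicate B hold the highest sums of peroxiredoxins, SODs, thioredoxins, thioredoxin reductases and the glyoxalase class, while the GST row is lowest in both libraries of L1.

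Gene by gene, 39 of the 145 genes (26.9%) had their 2 highest levels in H1 replicate A and H2 replicate B, against 17.1% of all tested genes. The share was 14 of 36 thioredoxins (38.9%) and 4 of 35 GSTs (11.4%). Replicates differed by at least 2-fold, on CPM + 1, for 25 of the 145 genes in H1 (17.2%, against 22.7% of all tested genes) and for 14 in H2 (9.66%, against 14.0%). In L1 it was 10 genes (6.90%, against 4.41%) and in L2 6 genes (4.14%, against 3.70%). The median coefficient of variation over the 8 libraries was 26.7% for the redox genes, against 32.6% for all tested genes. It was highest for the GSTs, at 41.6%, and the glutaredoxins, at 38.7%. It was lowest for the ascorbate-regenerating reductases, at 17.3%, the enzymes of glutathione synthesis, reduction and breakdown, at 17.5%, and the catalases, at 17.9%.

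The glutaredoxins, small oxidoreductases that use glutathione, gave 1 gene at an unadjusted p under 0.05 in H1/L1 and 0 in H2/L2. It was the ycf64-like *LOC102597394*, named after its values were seen, with 27.4 and 26.3 CPM in L1, against 50.3 and 36.4 CPM in H1, and 25.8 and 23.6 CPM in L2, against 30.7 and 40.5 CPM in H2, no overlap of low and high TSC, and log2FCs of -0.69 (SE 0.270) and -0.53 (SE 0.269). Leaving out libraries, alone or H1 replicate A with H2 replicate B, gave -0.90 to -0.43 in H1/L1 and -0.71 to -0.31 in H2/L2. The gene with the highest mean CPM, *LOC102595988* (monothiol glutaredoxin-S17, of a type tied to iron-sulfur proteins), had 646 and 596 CPM in L1, against 438 and 520.0 CPM in H1, and 576 and 525 CPM in L2, against 584 and 543 CPM in H2. L1 lay above H1 with no overlap, by a log2FC of 0.37 (SE 0.246), and L2 and H2 overlapped. *GRX2* had 67.9 and 16.7 CPM in L1, against 49.3 and 23.4 CPM in H1, and 47.7 and 65.0 CPM in L2, against 32.5 and 39.9 CPM in H2, and its 2 libraries of L1 held the highest and the lowest level of all. Near other genes named here, the glutaredoxins *LOC102600419* and *LOC102598912* ranged from 16.5 to 33.2 CPM and from 1.51 to 6.16 CPM. The sum of the class was 1016 and 883 CPM in L1, against 905 and 825 CPM in H1, and 939 and 907 CPM in L2, against 949.7 and 1015 CPM in H2.

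Of the thioredoxins, *LOC102599106* (H-type, cytosolic; scaffold NW_006238946.1, 738065 to 739582) had the lowest p. It had 73.7 and 80.4 CPM in L1, against 189 and 137 CPM in H1, and 90.5 and 100.0 CPM in L2, against 96.9 and 131 CPM in H2. L1 was below H1 with no overlap and a log2FC of -1.08 (SE 0.273, FDR 0.789), and in H2/L2 it was -0.26 (SE 0.270, FDR 1.00). Without H1 replicate A and H2 replicate B, the values were -0.83 and -0.03. *LOC102582471*, for the plastid protein CDSP32, known from drought-treated potato, had 6.74 and 9.31 CPM in L1, against 15.9 and 14.1 CPM in H1, and 11.5 and 9.12 CPM in L2, against 9.82 and 10.4 CPM in H2, with a log2FC of -0.90 (SE 0.308, FDR 0.789) in H1/L1. The gene with the highest mean CPM, *LOC102602362* (CXXS1), had 412 and 309 CPM in L1, against 358 and 212 CPM in H1, and 312 and 333 CPM in L2, against 204 and 405 CPM in H2, with overlap in both comparisons.

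The other thioredoxin genes lower in L1 at an unadjusted p under 0.05 were 2 annotated as thioredoxin H2 (a protein name, unrelated to the bulk) and 1 annotated as YLS8, a type known from the spliceosome. For *LOC102595471* and *LOC102593604*, both named here after their values were seen, H1 replicate A held 56.9 and 40.8 CPM, while L1 and H1 replicate B lay between 17.3 and 21.9 CPM and between 9.24 and 10.97 CPM. Their log2FCs in H1/L1 were -1.11 and -1.41, and -0.27 and -0.18 without the libraries that stood apart. *LOC102594936* (YLS8) had 3.42 and 4.21 CPM in L1, against 11.2 and 5.46 CPM in H1, and 4.59 and 4.52 CPM in L2, against 3.86 and 3.87 CPM in H2, with log2FCs of -1.12 (SE 0.444) and 0.24 (SE 0.439). Its H1/L1 value ranged over -1.55 to -0.51 when libraries were left out, alone or H1 replicate A with H2 replicate B. In H2/L2 the lowest p of a gene higher in L2 with no overlap was that of *LOC102604617* (TTL1-like), at 7.62 and 7.67 CPM in L2, against 5.74 and 3.82 CPM in H2, with a log2FC of 0.67 (SE 0.503, FDR 1.00). The plastid genes *LOC102593474* and *LOC102596305* were also higher in L2 with no overlap. *LOC102593474* had 48.3 and 46.8 CPM in L1, against 23.7 and 43.7 CPM in H1, and 45.1 and 46.4 CPM in L2, against 34.5 and 40.4 CPM in H2, and was the other redox gene with all low-TSC libraries above all high-TSC libraries. *LOC102596305* had 1.65 and 1.27 CPM in L2, against 0.744 and 0.773 CPM in H2.

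The difference between H1/L1 and H2/L2 was tested as an interaction. No redox gene was called and none had an unadjusted p under 0.05 in edgeR, where 0% of all tested genes were called, 0.839% lay higher and 0.736% lower at that p. DESeq2 called 0 redox genes, against 6 of all 25652 genes it tested. It gave 3 redox genes at an unadjusted p under 0.05, where 1.97% of all genes it tested lay. The lowest p was that of the plastid Cu/Zn-SOD *LOC102605869*, with a difference of 0.92 (SE 0.415, FDR 1.00), and next came *LOC102594936*, with -1.36 (SE 0.624, FDR 1.00). For the iron SOD *LOC102577566* it was 0.84 (SE 0.428, FDR 1.00), and 1.31 (FDR 0.804) without H1 replicate A and H2 replicate B. For the GSTs *LOC102585121* and *LOC102600356* it was 1.80 (SE 0.858) and -2.53 (SE 1.27), and the second moved to -0.62 without L2 replicate A. Leaving out single libraries gave 1.26 to 2.77 for the first.

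Genes that supply or use the same molecules were counted from lists by product name. Of all tested genes, 2.39% in H1/L1, 1.04% in H2/L2 and 3.09% in H/L were higher at low TSC at an unadjusted p under 0.05. Of the 5 genes of ascorbate synthesis, 1 had an unadjusted p under 0.05 in H1/L1, H2/L2 and H/L, and it was higher at low TSC. This was *LOC102596542*, for GDP-L-galactose phosphorylase, which controls the flow into ascorbate, with 303 and 282 CPM in L1, against 190.4 and 181 CPM in H1, and 308 and 416 CPM in L2, against 178 and 239.8 CPM in H2. All low-TSC libraries lay above all high-TSC libraries, with log2FCs of 0.66 (SE 0.273, FDR 0.789), 0.80 (SE 0.273, FDR 1.00) and, in H/L, 0.73 (SE 0.193, FDR 0.623). The ascorbate synthesis genes had a median log2FC of 0.26 in H/L, against 0.02 for all tested genes, and an FDR of at least 0.623.

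Of 39 tested class III peroxidases, which act in the cell wall and in lignin and suberin, 4 were lower and 2 higher in H/L at an unadjusted p under 0.05 (median -0.29). Among all tested genes, 4.75% were lower and 3.09% higher in H/L at this p. The peroxidase 45-like gene *LOC102594915* had 8.53 and 7.73 CPM in L1, against 2.22 and 3.501 CPM in H1, and 13.6 and 12.3 CPM in L2, against 5.28 and 2.41 CPM in H2, with no overlap and a log2FC of 1.62 (SE 0.322, FDR 0.623) in H/L. *POPA*, a suberization-associated peroxidase and also a periderm marker here, had 2.16 and 2.64 CPM in L1, against 10.1 and 6.02 CPM in H1, and 4.07 and 2.03 CPM in L2, against 2.76 and 7.82 CPM in H2, with a log2FC of -1.27 (SE 0.432, FDR 0.623). Its value in H/L ranged over -1.55 to -0.59 when libraries were left out, alone or H1 replicate A with H2 replicate B. The other 4 had log2FCs in H/L of -2.66 (*LOC107057722*), -1.57 (*LOC102605292*), -1.21 (*LOC102578144*) and 2.21 (*LOC102604601*). Of 7 respiratory burst oxidases, which produce superoxide at the cell surface, 1 was higher in H/L, *LOC102586476* (type D), with 8.94 and 5.13 CPM in L1, against 5.48 and 3.78 CPM in H1, and 13.6 and 10.2 CPM in L2, against 2.80 and 6.66 CPM in H2. Of 9 ascorbate oxidases 1 was higher in H/L, *LOC102595490*, at 2.38 and 2.05 CPM in L1, against 0.238 and 0.700 CPM in H1, and 1.35 and 3.33 CPM in L2, against 1.06 and 1.12 CPM in H2. The single tested glutamate-cysteine ligase, which starts glutathione synthesis, the 4 alternative oxidases and the 7 genes of NADPH supply gave 0 at this p in every comparison in edgeR. No gene of these lists was called by edgeR in any comparison, while DESeq2 called *LOC102594915* in H/L, with a log2FC of 1.60.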

How the data were processed

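Poly(A) RNA of potato tubers was sequenced in 8 libraries from 4 bulks of 6 plants each, with 2 replicates per bulk. The methods call the replicates biological, but whether A and B pooled the same plants is not given, so p-values measure the spread between these libraries. The raw counts per gene that the authors deposited were used: reads were trimmed with Trimmomatic, aligned to SolTub_3.0 with Bowtie2 2.1.0 and TopHat2 2.0.9 per the submitters' processing notes, and counted with HTSeq. No source used here gives the strand setting or the treatment of overlapping or repeated genes, so near-identical, overlapping and antisense genes are uncertain. Product names and positions came from 4 annotated comparison tables covering 25002 of the 32768 genes. Their columns of the authors' fold changes, p-values and normalized counts were not used, nor were 2 columns of the count table that matched no sample. Groups came from the submitters' sample labels.

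Library totals were 15293539 to 31943185 counts, with a median of 27544687.5. Genes were filtered with edgeR's filterByExpr (20389 tested, all 145 redox genes among them), scaled by TMM and fitted across all 8 libraries with edgeR 4.0.16 (glmQLFit and glmQLFTest, limma 3.58.1, R 4.3.3). P-values were adjusted by Benjamini-Hochberg over all tested genes, and the biological coefficient of variation was 0.426. Calls required an FDR below 0.05 together with a log2FC of 1.5 or more in either direction. The SE of a log2FC is its size divided by the square root of the F statistic. CPM values are counts relative to the TMM-scaled library total. No transcript lengths were used, so levels are not compared between genes. The scripts were tested on simulated data.

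The genes and lists were chosen with earlier results of these data known. Named genes were the gene with the highest mean CPM in each class, all genes of classes of 5 or fewer, and the study's GST. They also included up to 5 genes per direction and comparison with the lowest unadjusted p among those whose groups did not overlap (for the interaction, with no such condition), and redox genes within 100 kb of these. Genes outside this rule are marked as named after their values were seen. Alternatives were DESeq2 1.42.0, library totals or RLE size factors in place of TMM, a log2FC threshold of 1, no low-count filter, the replicate letter as a block, fits of 4 libraries only, leaving out each library, and leaving out H1 replicate A and H2 replicate B together. Same-letter libraries were not treated as paired, since no label ties the letters together. Differences between A and B correlated at 0.134 between L1 and H1 and at -0.0765 between L2 and H2 over all tested genes, and at 0.313 and -0.0062 over the redox genes.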

Additional observations from a re-analysis of the deposited data

How the results depend on the processing

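No redox gene was called under any alternative but DESeq2, which called 2 in H/L, both GSTs with most counts in H2 replicate A. It called 68 of all 25652 genes it tested in H/L. When single libraries were left out, the count of called genes stayed at 0 in every comparison. Of the log2FCs recomputed for named genes, 1200 kept their direction and side of the threshold, 2 passed it with DESeq2 in H/L (*LOC102579204* at -2.08 and the class III peroxidase *LOC102594915*, which is not among the redox genes, at 1.60), and 16 changed sign. None of these genes was called in the main fit, so keeping the side of the threshold says little about size. For example, *LOC102595471* in H1/L1 ranged over -1.64 to -0.26 when libraries were left out and counts as kept. With library totals, *CAT1* turned to 0.0035 in H2/L2, and *LOC102602024* turned to -0.0113 with DESeq2 and -0.0117 with RLE size factors. The other changes of sign came from leaving out libraries, alone or H1 replicate A with H2 replicate B. They gave ranges of -0.62 to 0.20 for *LOC102586473* in H1/L1, -0.61 to 0.0758 for *LOC102599485* in H/L and -1.29 to 0.40 for *LOC102600356* between *AGPaseS-a* classes. In H2/L2 they gave -0.27 to 0.049 for *CAT1*, -0.0314 to 0.63 for *LOC102578720*, -0.0374 to 0.34 for *LOC102588189*, -0.33 to 0.30 for *LOC102591927* and -0.33 to 0.45 for *LOC102602024*. Counts at an unadjusted p under 0.05 moved more. Leaving out single libraries gave 3 to 41 in H1/L1, where 14 were found, 4 to 8 in H2/L2, 11 to 38 in H/L, 3 to 13 between classes of *AGPaseS-a* expression and 0 to 15 for the interaction. The share of all tested genes at this p moved too, over 2.14 to 24.1% in H1/L1, 1.31 to 8.78% in H2/L2, 3.81 to 24.2% in H/L, 1.91 to 11.8% between *AGPaseS-a* classes and 0.908 to 10.7% for the interaction. With the replicate letter as a replicate block, the counts were 9 in H1/L1 (3.74% of all tested genes), 5 in H2/L2 (1.72%), 13 in H/L (5.56%) and 5 between *AGPaseS-a* classes (2.43%), and 0 genes were called. No label ties the letters together. Because A minus B correlated at -0.333 over all tested genes between H1 and H2 (-0.194 over the redox genes), letters crossed in H2 were tried after seeing the data and gave 21 genes in H/L (10.8% of all tested genes) and 8 between *AGPaseS-a* classes (3.64%). The fit of the 4 libraries of H1/L1 alone gave 7 genes (3.95%). Levels per length were not run, since no transcript lengths were used. With 2 libraries per bulk and a biological coefficient of variation of 0.426, a difference below the threshold does not show that levels are equal, and the causes of these shifts were not tested.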
